A study of Macaca mulatta with 27 samples.

Results

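Transcript levels of 8 target genes of the tumour suppressor p53, MDM2, GADD45A, ZMAT3, SESN1, RRM2B, FAS, TNFRSF10B and PHLDA3, were followed in rhesus monkey pluripotent stem cells (PSCs) before and after reprogramming to naive pluripotency. The genes were chosen by symbol, as known targets of p53, from the 17967 gene symbols of the deposited count tables, and all 8 were detected in all 27 libraries. They and the wider gene lists below were chosen with earlier results of these data known. Counts of genes called are therefore a description and no independent test. The inhibitor MDM4 and the target CDKN1A are described beside them.

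All libraries came from LyonES-tGFP-(S3), 1 clonal line of rhesus embryonic stem cells that carries a tauGFP transgene under the ubiquitous CAG promoter and a lentiviral STAT3-ERT2, a STAT3 that tamoxifen activates. Messenger RNA was sequenced from 6 libraries of primed cells and from 3 libraries for each of 7 reprogramming protocols (TL2i, TL-CDK8/19i, named TL-CDK8i in the labels, 4i/L/b, E-NHSM, LCDM (EPS), NHSM-v and t2iLGöY), and the comparisons ask which genes each protocol moves away from the primed level. Tamoxifen was used in TL2i, together with LIF, a MEK inhibitor and a GSK3β inhibitor, and in TL-CDK8/19i, in which CNIO-47799, an inhibitor of the kinases CDK8 and CDK19, took the place of the MEK and GSK3β inhibitors. The other protocols left STAT3-ERT2 without tamoxifen, and the agents in their media are not given in the sources used here. Primed cells were passaged mechanically as clumps and reprogrammed cells as single cells, so protocol and passaging cannot be told apart in any comparison with primed cells. No label says that replicates came from separate cultures, and p-values then measure only the spread between these libraries.

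p53 is a transcription factor that is kept low by the ubiquitin ligase MDM2 and its relative MDM4, and that accumulates when DNA is damaged or ribosome assembly or nutrient supply is disturbed. It then switches on genes that halt the cell cycle, repair DNA, limit growth signals or start apoptosis, and it also switches on MDM2, which closes a feedback loop. PSCs enter apoptosis readily after DNA damage, with p53 taking part, and p53 is a known barrier to reprogramming of somatic cells.

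Library totals ran from 7111886 to 20760914 counts with a median of 12201171. Levels are CPM, read counts scaled to library size, after TMM normalisation, which corrects for the make-up of each library, and each comparison was a fit of edgeR's quasi-likelihood test over all genes with a call at an adjusted p below 0.05. A floor of 3 counts corresponds to between 0.141 and 0.429 CPM, depending on the library. POU5F1, the defining transcription factor of PSCs, averaged 1182 CPM in primed, 1366 CPM in E-NHSM and 502.5 CPM in TL-CDK8/19i libraries, but only 0.29 to 6.44 CPM in the other 5 protocols, all of which the labels call naive cells. In bulk libraries a change in the share of cells that express a gene and a change in the level per cell cannot be told apart.

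All 8 p53 target genes rose in TL-CDK8/19i against primed cells, which happened in none of the other 6 protocols. None fell, with a median log2 fold change of 1.87 against 0.02 over the 13359 genes tested, of which 22.3% were called higher and 23.8% lower. In TL2i 6 rose and 1 fell (25.6% and 25.2% of all genes), and in 4i/L/b 5 rose and 1 fell (26.6% and 29%). NHSM-v gave 2 higher and 1 lower (28% and 30.6% of all genes). E-NHSM gave none higher and 2 lower (11.1% and 15.1% of all genes). In t2iLGöY 1 was higher and 3 were lower (27.1% and 27.2%), and in LCDM (EPS) 1 was higher and 4 were lower (28.2% and 28.9%). With only 8 genes, the counts in NHSM-v, E-NHSM and t2iLGöY lay near the shares of all genes. The median log2 fold changes of the 8 genes were 0.73 in TL2i, 0.76 in 4i/L/b, 0.10 in NHSM-v, -0.52 in E-NHSM, -0.55 in t2iLGöY and -0.74 in LCDM (EPS), where the medians over all genes lay between -0.02 and 0.07. All 7 comparisons share the 6 primed libraries.

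**Figure D1:**
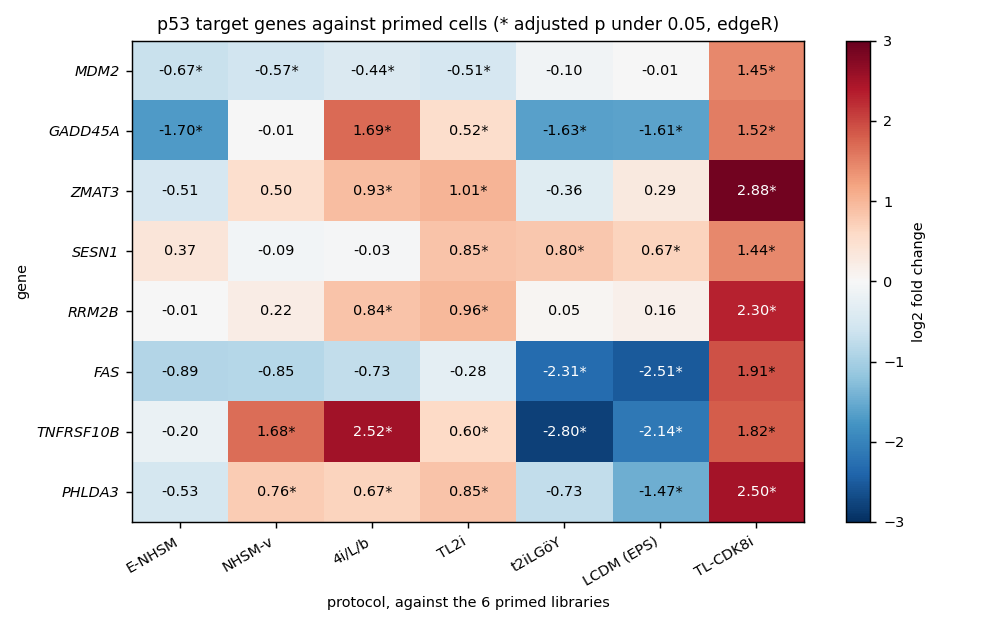
Log2 fold change of each of the 8 p53 target genes (rows) in each protocol (columns) against the 6 primed libraries, from blue (lower) to red (higher). An asterisk marks an adjusted p below 0.05 in edgeR's quasi-likelihood test, and the TL-CDK8i column alone is red and marked in all 8 genes.

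In TL-CDK8/19i all 8 genes were called higher in each of 16 alternative analyses. The counts moved by more than 1.5 times when E-NHSM replicate 1 was left out (1 gene called instead of 2), when 4i/L/b replicate 3 was left out (3 instead of 6), and when TL2i replicate 1 was left out (4 instead of 7). With upper-quartile normalisation all genes called in E-NHSM were split into 1879 higher and 1713 lower, compared with 1476 higher and 2010 lower, and RRM2B, not called in either analysis, changed sign.

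MDM2, the ubiquitin ligase that destroys p53 and is itself its target, was high in TL-CDK8/19i alone. It stood at 186.3, 192.3 and 190.9 CPM there, and ranged from 56.2 to 90.6 CPM, with a median of 59.1 CPM, in primed libraries. The rise was 2.74-fold (log2 fold change 1.45 ± 0.14 SE, adjusted p = 1.4e-06), and no library of another group exceeded 90.6 CPM. MDM2 moved the other way in 4 protocols. Levels were 37.3, 40.2 and 48.9 CPM in E-NHSM, 44.4, 43.4 and 49.1 CPM in NHSM-v, 54.1, 49.5 and 49.1 CPM in 4i/L/b and 46.4, 49.9 and 44.8 CPM in TL2i, all below the lowest primed library, with log2 fold changes of -0.67, -0.57, -0.44 and -0.51 (adjusted p = 0.0063, 0.0089, 0.035 and 0.017). These falls were small, none changed direction in the alternatives, and several calls were lost. The call in 4i/L/b was lost in 10 of 16 alternatives, among them DESeq2 (log2 fold change -0.36, adjusted p = 0.079) and leaving out any 1 of the 3 4i/L/b libraries (-0.45, -0.42 and -0.41, adjusted p = 0.093, 0.11 and 0.12) or Primed K2 (-0.38, adjusted p = 0.074) or Primed K3 (-0.29, adjusted p = 0.084). Leaving out E-NHSM replicate 1 ended the call in E-NHSM (-0.59, adjusted p = 0.053), and leaving out TL2i replicate 1 or 3 ended the call in TL2i (-0.49 and -0.47, adjusted p = 0.064 and 0.077). Against the 3 primed libraries whose columns carry the letter J, the falls in 4i/L/b, NHSM-v and TL2i were not called (adjusted p = 0.17, 0.078 and 0.067). In t2iLGöY (57.4, 54.8 and 72.1 CPM) and LCDM (EPS) (64.7, 57.4 and 76.8 CPM) MDM2 overlapped the primed range.

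**Figure D2:**
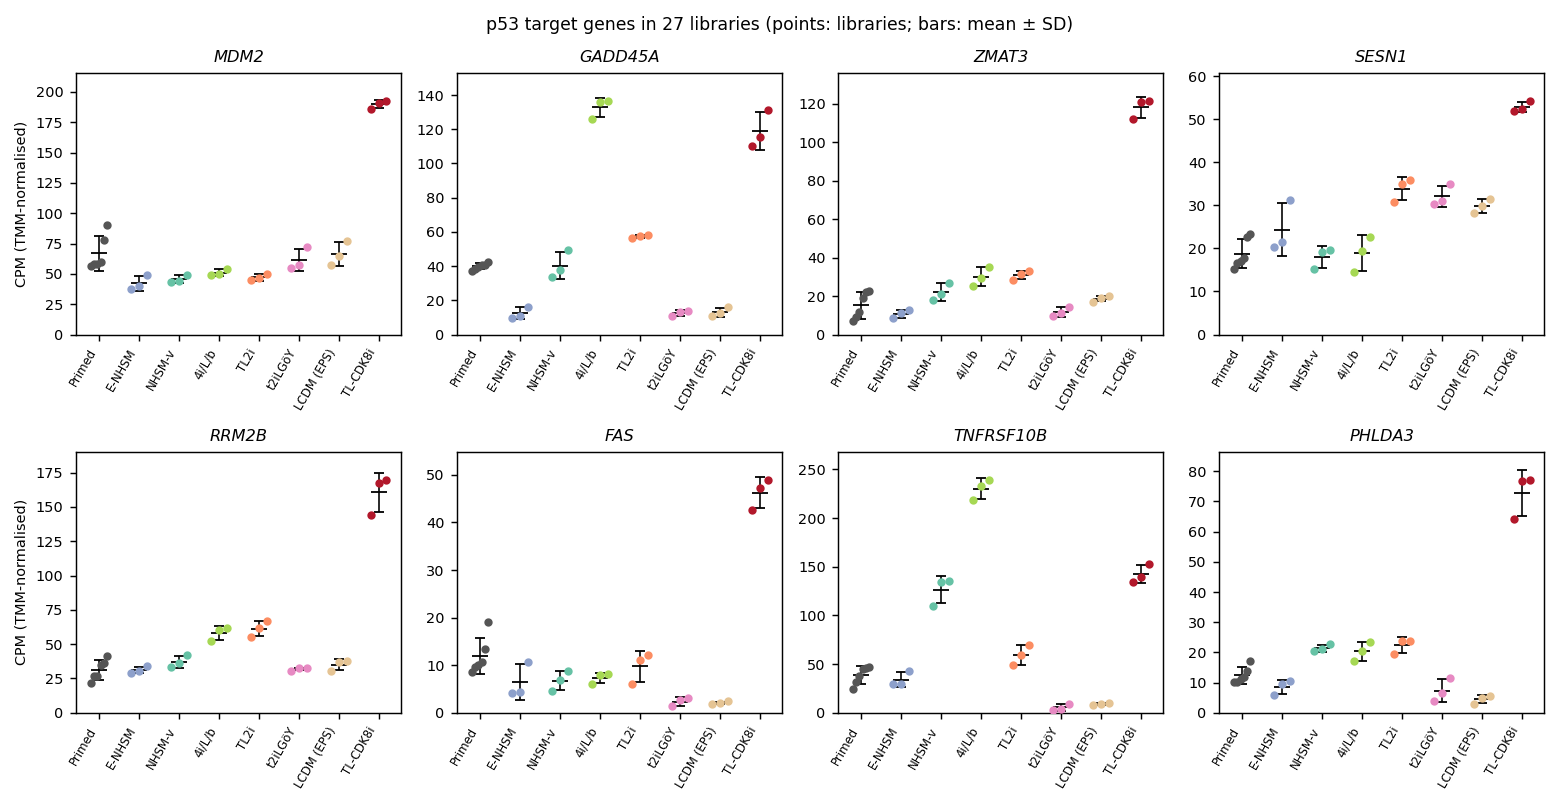
CPM of each p53 target gene (1 panel per gene, linear axis from 0) in each of the 27 libraries, grouped by protocol, with points for libraries and bars for the mean ± SD. TL-CDK8i stands above all other groups for MDM2, ZMAT3, SESN1, RRM2B, FAS and PHLDA3, while 4i/L/b is as high or higher for GADD45A and TNFRSF10B.

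GADD45A and RRM2B serve DNA repair and the cell cycle. GADD45A, a stress sensor that binds cell-cycle and repair proteins, was tightly held in primed cells at 37.3 to 42.5 CPM with a median of 40.1 CPM. It reached 110, 131.4 and 115.4 CPM in TL-CDK8/19i (2.88-fold, adjusted p = 5.1e-08) and 136.4, 126.3 and 135.7 CPM in 4i/L/b (3.23-fold, adjusted p = 4.6e-09). These 2 groups overlapped. TL2i was in between at 58.0, 57.3 and 56.5 CPM, still above every primed library (1.43-fold, adjusted p = 0.0015). GADD45A fell to about the same level in 3 protocols, with 10.8, 16.4 and 9.80 CPM in E-NHSM, 10.6, 14.0 and 13.2 CPM in t2iLGöY and 16.0, 12.5 and 10.7 CPM in LCDM (EPS). The log2 fold changes there were -1.70 ± 0.20, -1.63 ± 0.18 and -1.61 ± 0.17 (SE), with adjusted p = 3.3e-06, 2.1e-06 and 2.2e-06. NHSM-v (37.6, 49.3 and 33.9 CPM) straddled the primed range.

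RRM2B, the p53-inducible small subunit of ribonucleotide reductase that supplies nucleotides for DNA repair, ranged from 21.6 to 41.7 CPM with a median of 31.0 CPM in primed libraries. Its levels in TL-CDK8/19i were 144, 167.5 and 169.9 CPM (4.92-fold, log2 fold change 2.30 ± 0.16 SE, adjusted p = 7.7e-08). TL2i (66.7, 62.1 and 55.2 CPM) and 4i/L/b (61.8, 52.3 and 60.5 CPM) also lay above every primed library, by 1.95-fold and 1.80-fold (adjusted p = 0.00058 and 0.0016). In the other 4 protocols RRM2B lay between 29.4 and 41.8 CPM and was not called against the 6 primed libraries, although against the J libraries alone it was higher in NHSM-v (log2 fold change 0.57, adjusted p = 0.029) and LCDM (EPS) (0.50, adjusted p = 0.042).

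ZMAT3 encodes a zinc finger protein that binds RNA and is among the most regular targets of p53. It was the member with the largest fold change against primed cells, at 111.9, 121.2 and 120.9 CPM in TL-CDK8/19i and between 7.0 and 22.8 CPM with a median of 15.2 CPM in primed libraries (7.38-fold, log2 fold change 2.88 ± 0.28 SE, adjusted p = 1.5e-06). Smaller rises were called in 4i/L/b, at 35.2, 25.4 and 29.5 CPM (1.90-fold, adjusted p = 0.028), and in TL2i, at 32.8, 31.5 and 28.4 CPM (2.01-fold, adjusted p = 0.017). ZMAT3 was also the only member that differed between the primed libraries themselves, whose columns carry the letters J and K. The J libraries held 8.94, 11.4 and 7.0 CPM and the K libraries 19.0, 22.1 and 22.8 CPM (log2 fold change of K over J 1.21 ± 0.30 SE, adjusted p = 0.034), in a comparison where 2.03% of 12559 genes were higher and 1.7% lower. That difference was no longer called when Primed J1, K1, K2 or K3 was left out (adjusted p = 0.079, 0.072, 0.15 and 0.15). The choice of primed libraries decided 4 further results of ZMAT3. Against the J libraries alone it was higher in NHSM-v (log2 fold change 1.27, adjusted p = 0.0040) and LCDM (EPS) (1.05, adjusted p = 0.0089), and against the K libraries alone lower in E-NHSM (-0.98, adjusted p = 0.0033) and t2iLGöY (-0.85, adjusted p = 0.014), while none of these 4 was called against all 6. The call in 4i/L/b was lost without 4i/L/b replicate 1 or 3 or Primed J1 (adjusted p = 0.12, 0.068 and 0.050), and the call in TL2i without TL2i replicate 1 or 2 (adjusted p = 0.060 and 0.055).

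SESN1 and PHLDA3 restrain growth signals. SESN1, a sestrin that curbs the growth kinase mTORC1, rose in TL-CDK8/19i by a fold close to that of MDM2, from 15.3 to 23.3 CPM with a median of 17.5 CPM in primed libraries to 52.4, 52.1 and 54.2 CPM (2.71-fold, log2 fold change 1.44 ± 0.17 SE, adjusted p = 7.5e-06). It was the member that rose in t2iLGöY and LCDM (EPS), where FAS and TNFRSF10B fell. Its levels there were 30.4, 35.0 and 31.1 CPM (1.74-fold, adjusted p = 0.0035) and 29.9, 28.3 and 31.6 CPM (1.59-fold, adjusted p = 0.0075), close to 30.8, 35.0 and 35.9 CPM in TL2i (1.80-fold, adjusted p = 0.0014). All 9 libraries of these protocols lay above the primed range, whereas NHSM-v (19.2, 15.1 and 19.7 CPM) and 4i/L/b (22.8, 14.5 and 19.5 CPM) overlapped it.

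PHLDA3, which competes with the kinase AKT for membrane lipids, had a primed range of 10.2 to 17.2 CPM with a median of 11.5 CPM. TL-CDK8/19i libraries held 64.0, 76.9 and 77.3 CPM (5.64-fold, log2 fold change 2.50 ± 0.18 SE, adjusted p = 7.4e-08). PHLDA3 rose less in TL2i, with 23.9, 23.8 and 19.4 CPM (1.80-fold, adjusted p = 0.0058), in NHSM-v, with 20.4, 22.6 and 21.0 CPM (1.69-fold, adjusted p = 0.013), and in 4i/L/b, with 17.2, 20.6 and 23.5 CPM (1.59-fold, adjusted p = 0.024). It fell in LCDM (EPS), to 4.84, 2.97 and 5.63 CPM (log2 fold change -1.47 ± 0.33 SE, adjusted p = 0.0018). The call in NHSM-v was lost without NHSM-v replicate 2 (adjusted p = 0.057), the call in 4i/L/b without 4i/L/b replicate 2 or 3 (adjusted p = 0.077 and 0.13), and the level in t2iLGöY (6.62, 3.87 and 11.5 CPM) was called lower only without t2iLGöY replicate 3 (log2 fold change -1.21, adjusted p = 0.027) or with all 8 groups in a single fit (-0.77, adjusted p = 0.011).

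FAS and TNFRSF10B are death receptors, cell surface proteins that start the extrinsic pathway of apoptosis when FAS ligand or TRAIL binds them. FAS was high in TL-CDK8/19i alone, at 47.2, 42.7 and 49.0 CPM, with a primed range of 8.64 to 19.0 CPM and a median of 10.3 CPM (3.77-fold, log2 fold change 1.91 ± 0.23 SE, adjusted p = 9.3e-06). It fell in t2iLGöY, to 2.59, 3.07 and 1.37 CPM (log2 fold change -2.31 ± 0.44 SE, adjusted p = 0.00043), and in LCDM (EPS), to 2.05, 1.79 and 2.38 CPM (-2.51 ± 0.38 SE, adjusted p = 7.0e-05). E-NHSM (4.34, 4.23 and 10.8 CPM), NHSM-v (8.68, 4.63 and 6.87 CPM), 4i/L/b (6.15, 7.90 and 8.09 CPM) and TL2i (11.1, 12.2 and 6.08 CPM) were not called, although leaving out E-NHSM replicate 3 gave a fall in E-NHSM (-1.47, adjusted p = 0.023) and leaving out Primed K1 gave a fall in NHSM-v (-0.88, adjusted p = 0.050), and a fit of all 8 groups called both falls (-0.88 and -0.82, adjusted p = 0.032 and 0.030).

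TNFRSF10B, a receptor for TRAIL, showed the widest span of the 8, from 2.54 CPM in a t2iLGöY library to 239.5 CPM in a 4i/L/b library. Its primed range was 24.6 to 47.3 CPM with a median of 41.5 CPM. It rose to 139.6, 153 and 134.6 CPM in TL-CDK8/19i (3.54-fold, adjusted p = 8.9e-07), to 110.1, 135 and 133.8 CPM in NHSM-v (3.20-fold, adjusted p = 1.0e-06) and to 218.4, 239.5 and 232.7 CPM in 4i/L/b (5.75-fold, adjusted p = 2.1e-08). The 4i/L/b libraries were above all others, and TL-CDK8/19i and NHSM-v overlapped. The rise in TL2i, to 59.5, 69.2 and 48.7 CPM (1.52-fold, adjusted p = 0.018), was lost without TL2i replicate 1 or 2 (adjusted p = 0.054 and 0.12). TNFRSF10B fell in t2iLGöY, to 9.55, 2.54 and 4.26 CPM (log2 fold change -2.80 ± 0.38 SE, adjusted p = 1.6e-05), and in LCDM (EPS), to 9.79, 7.97 and 8.66 CPM (-2.14 ± 0.24 SE, adjusted p = 3.1e-06). TNFRSF10B belongs to a family of similar receptors with TNFRSF10A and TNFRSF10C, and how reads that match more than 1 of them were counted is not given in the sources used here.

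TL2i and TL-CDK8/19i share tamoxifen, LIF and single-cell passaging, and the stated difference between them is the exchange of the MEK and GSK3β inhibitors for the CDK8/19 inhibitor. All 8 genes were higher in TL-CDK8/19i, where 31.5% of 13729 genes were called higher and 33.3% lower, and their median log2 fold change was 1.51 against -0.04 over all genes. FAS differed most, by 4.59-fold (log2 fold change 2.20 ± 0.20 SE, adjusted p = 4.4e-07), followed by MDM2 by 3.95-fold (1.98 ± 0.09 SE, adjusted p = 5.8e-10) and ZMAT3 by 3.73-fold (1.90 ± 0.10 SE, adjusted p = 2.0e-09). The difference was 3.17-fold for PHLDA3, 2.55-fold for RRM2B, 2.35-fold for TNFRSF10B and 2.03-fold for GADD45A (adjusted p = 5.3e-08, 7.2e-08, 8.8e-07 and 5.7e-07). SESN1 differed least, by 1.53-fold (0.61 ± 0.11 SE, adjusted p = 0.00019). No library of the 2 protocols overlapped for any of the 8 genes. The order of the genes was not that of the comparison with primed cells, since TL2i was below primed cells for MDM2 and above them for SESN1. The cells of the 2 protocols also differed in pluripotency markers. Of 8 such markers 7 were called higher in TL-CDK8/19i and 0 lower (31.5% and 33.3% of all genes). POU5F1 averaged 502.5 CPM there and 6.44 CPM in TL2i. The part of this difference in the levels of the p53 targets was not tested.

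Over all groups, the 3 TL-CDK8/19i libraries lay above each of the other 24 for 6 of the 8 genes (MDM2, ZMAT3, SESN1, RRM2B, FAS and PHLDA3), which held for 6.45% of the 14752 genes kept. Across the 27 libraries, log2 CPM values of the 28 pairs among the 8 genes had Pearson's r between -0.15 (SESN1 and TNFRSF10B) and 0.95 (ZMAT3 and RRM2B), with a median of 0.66, and 22 pairs exceeded 0.5. These values describe libraries that share a protocol within each group and a common scaling. The gene most like ZMAT3 among all genes kept was RRM2B and vice versa, each followed by a gene outside the list, RASA2 for ZMAT3 (r = 0.91) and ADGRG3 for RRM2B (r = 0.94). The genes most like the others were all outside the list, with r of 0.92 for ACTR2 with MDM2, 0.94 for FOSL1 with GADD45A, 0.83 for CTNNBL1 with SESN1, 0.92 for PLXND1 with FAS, 0.93 for ANKRD33B with TNFRSF10B and 0.93 for TBL1X with PHLDA3.

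MDM4 encodes the relative of MDM2 that binds p53 and blocks its activity. It was lowest in TL-CDK8/19i, at 49.3, 41.7 and 30.8 CPM, with 45.8 to 75.7 CPM and a median of 51.0 CPM in primed libraries. The ranges overlapped, and the fall (log2 fold change -0.53 ± 0.20 SE, adjusted p = 0.042) was lost in 9 of 16 alternatives, including DESeq2 (-0.47, adjusted p = 0.057) and leaving out TL-CDK8/19i replicate 3 (-0.33, adjusted p = 0.26), TL-CDK8/19i replicate 2 (adjusted p = 0.10), Primed J1 (-0.41, adjusted p = 0.099), Primed J2 (adjusted p = 0.058) or Primed K2 (adjusted p = 0.081). MDM4 was instead raised in TL2i, at 103.1, 122.4 and 106.7 CPM (1.96-fold, adjusted p = 0.00019), in 4i/L/b, at 100.1, 101 and 96.8 CPM (1.71-fold, adjusted p = 0.00096), and in LCDM (EPS), at 97.6, 89.7 and 105 CPM (1.73-fold, adjusted p = 0.00083). A rise in t2iLGöY, at 71.0, 75.1 and 78.8 CPM (1.35-fold, adjusted p = 0.040), was lost without any 1 of its 3 libraries (adjusted p = 0.069, 0.093 and 0.12) and without Primed J2, J3, K1 or K3 (adjusted p from 0.067 to 0.11). MDM4 in NHSM-v (70.3, 70.4 and 77.2 CPM) was not called (adjusted p = 0.097), but was called higher in 4 of 16 alternatives. These were the fits without Primed J1 or K2 (adjusted p = 0.015 and 0.040), with all 8 groups (adjusted p = 0.021) and against the K libraries alone (adjusted p = 0.031). TL-CDK8/19i was lower than TL2i in MDM4 (log2 fold change -1.48 ± 0.15 SE, adjusted p = 1.2e-06), whereas MDM2 was higher.

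CDKN1A encodes p21, the inhibitor of cyclin-dependent kinases that arrests the cell cycle downstream of p53. In TL-CDK8/19i it reached 103.1, 144.1 and 93.97 CPM, with 2.66 to 14.8 CPM and a median of 5.67 CPM in primed libraries (16-fold, log2 fold change 4.00 ± 0.38 SE, adjusted p = 1.0e-06). CDKN1A was also raised in 4i/L/b, at 73.4, 68.4 and 70.1 CPM (9.99-fold, adjusted p = 6.2e-06), in NHSM-v, at 55.9, 54.3 and 59.2 CPM (8.07-fold, adjusted p = 8.0e-06), and in TL2i, at 36.6, 31.4 and 29.1 CPM (4.70-fold, adjusted p = 0.00044). It stayed between 1.67 and 8.67 CPM in E-NHSM, t2iLGöY and LCDM (EPS), where it was not called. In E-NHSM (log2 fold change -1.57, adjusted p = 0.058) 5 of 16 alternatives called a fall, namely all 8 groups in a single fit (-1.54, adjusted p = 0.00081), DESeq2 (-1.57, adjusted p = 0.022), at least 10 counts in every library (-1.55, adjusted p = 0.029) and the fits without Primed K2 (-1.70, adjusted p = 0.046) and without Primed K3 (-1.73, adjusted p = 0.033).

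**Figure D3:**
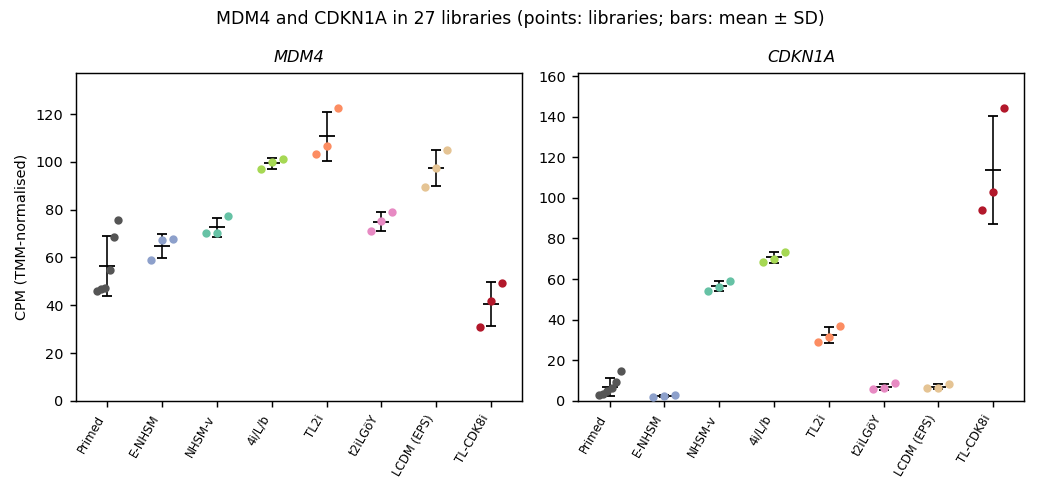
CPM of MDM4 and CDKN1A (1 panel per gene, linear axis from 0) in each of the 27 libraries, with points for libraries and bars for the mean ± SD of each group. By group mean, MDM4 is lowest and CDKN1A highest in TL-CDK8i.

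A wider list of 33 other p53 target genes, CDKN1A included, was counted in the same way, and it too was chosen with earlier results known. Of the 32 tested in TL-CDK8/19i against primed cells, 21 rose and 1 fell (22.3% and 23.8% of all genes), with a median log2 fold change of 1.32 against 0.02 over all genes, and SPATA18 was too low to test. Among those that rose were EDA2R, a receptor of the TNF family (12.3 to 108.5 CPM in group means, 8.46-fold, adjusted p = 3.1e-07), SUSD6, a membrane protein also called DRAGO (9.66 to 71.3 CPM, 7.09-fold, adjusted p = 1.1e-07), SESN2, the sestrin that senses leucine (24.8 to 137.4 CPM, 5.35-fold, adjusted p = 5.6e-08), and PERP, a desmosome protein linked to apoptosis (41.8 to 135.9 CPM, 3.14-fold, adjusted p = 2.7e-07). The gene that fell was PLK3, a stress-activated kinase (13.2 to 7.66 CPM, log2 fold change -0.84 ± 0.30 SE, adjusted p = 0.031), a call that was lost without TL-CDK8/19i replicate 2 or 3 or Primed K3 (adjusted p = 0.13, 0.16 and 0.070). The mitochondrial death genes BAX, BBC3 (PUMA) and PMAIP1 (NOXA) were not called, with log2 fold changes of 0.38, 0.56 and -0.39 (adjusted p = 0.067, 0.13 and 0.15). BAX was called higher in 5 of 16 alternatives, among them DESeq2 (0.43, adjusted p = 0.037) and the fit without Primed J1 (0.52, adjusted p = 0.0042). PMAIP1 was called lower in 2 of 16, among them the fit without Primed J1 (-0.47, adjusted p = 0.042). TL-CDK8/19i stood above every other library for 13 of the 32 kept, beside 6.45% of the 14752 genes kept, namely CDKN1A, DDB2, TIGAR, PPM1D, PLK2, TNFRSF10A, GDF15, EDA2R, RPS27L, APAF1, DRAM1, PERP and TNFRSF10C.

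Some of these targets rose elsewhere too. SESN2 reached 116.4, 131.2 and 137.8 CPM from the lowest to the highest E-NHSM library, a rise of 5.16-fold (adjusted p = 7.6e-09) in a protocol where no member rose. SUSD6 was raised in NHSM-v (6.87-fold, adjusted p = 4.3e-08), 4i/L/b (7.35-fold, adjusted p = 7.0e-08) and TL2i (4.97-fold, adjusted p = 1.5e-06). It also lay above the primed maximum of 13.96 CPM in t2iLGöY (30.09 to 37.14 CPM) and LCDM (EPS) (33.33 to 44.05 CPM). In E-NHSM it reached at most 3.67 CPM, below the primed minimum of 5.86 CPM. TP53INP1 rose in t2iLGöY and LCDM (EPS) by 7.49-fold and 7.34-fold (adjusted p = 2.5e-08 and 5.8e-08). It also rose in 4i/L/b and TL2i, by 3.71-fold and 3.65-fold (adjusted p = 7.6e-06 and 1.1e-05). Levels in NHSM-v (50.31 to 51.32 CPM) and TL-CDK8/19i (45.83 to 58.63 CPM) exceeded the primed maximum of 17.02 CPM. EDA2R rose in 4i/L/b by 4.4-fold (adjusted p = 1.6e-05). Its levels in TL2i (35.36 to 37.99 CPM) and NHSM-v (26.13 to 31.35 CPM) exceeded the primed maximum of 19 CPM. LIF, the cytokine, was raised in NHSM-v (13.7-fold, adjusted p = 6.4e-09) and 4i/L/b (15.4-fold, adjusted p = 1.6e-08). PMAIP1 fell in t2iLGöY, LCDM (EPS), TL2i and NHSM-v, with log2 fold changes of -4.42, -4.98, -3.96 and -2.76 (adjusted p = 2.9e-08, 1.2e-07, 6.4e-08 and 2.3e-06). In 4i/L/b it lay at 6.08 to 9.13 CPM, below the primed minimum of 17.31 CPM. In E-NHSM PMAIP1 rose (log2 fold change 0.85, adjusted p = 0.0028). PERP fell in t2iLGöY (log2 fold change -2.77, adjusted p = 1.5e-07) and PLK2 in E-NHSM (-1.90, adjusted p = 0.00013). PLK3 rose in LCDM (EPS) by 3.70-fold and POLH in TL2i by 3.11-fold (adjusted p = 1.0e-06 and 4.3e-05). Numbers of the wider list called higher and lower were 12 and 3 of 32 in TL2i (25.6% and 25.2% of all genes), 11 and 7 of 32 in 4i/L/b (26.6% and 29%), 10 and 8 of 31 in NHSM-v (28% and 30.6%), 3 and 4 of 31 in E-NHSM (11.1% and 15.1%), 3 and 14 of 31 in t2iLGöY (27.1% and 27.2%) and 8 and 11 of 31 in LCDM (EPS) (28.2% and 28.9%). In NHSM-v, E-NHSM and LCDM (EPS) these shares lay near those of all genes.

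Against TL2i, where 31.5% of all genes were called higher and 33.3% lower, 21 of the 32 rose in TL-CDK8/19i and 2 fell, PLK3 (log2 fold change -1.50 ± 0.20 SE) and the translesion polymerase POLH (-0.37 ± 0.13 SE), with a median of 0.63 against -0.04 over all genes. The call of POLH was lost without any 1 of the 3 TL2i libraries (adjusted p = 0.066, 0.089 and 0.057) and without TL-CDK8/19i replicate 3 (adjusted p = 0.13). PMAIP1 stood at 1.77 CPM in TL2i and 22.0 CPM in TL-CDK8/19i (group means, 12.1-fold, adjusted p = 6.4e-09), where the primed mean was 27.7 CPM. TNFRSF10A, another TRAIL receptor, rose from 2.45 to 30.6 CPM (12.2-fold, adjusted p = 1.2e-09), PERP from 19.7 to 135.9 CPM (6.75-fold, adjusted p = 1.5e-08) and TIGAR, a fructose bisphosphatase that slows glycolysis, from 17.3 to 72.4 CPM (4.08-fold, adjusted p = 6.1e-09).

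**Figure D4:**
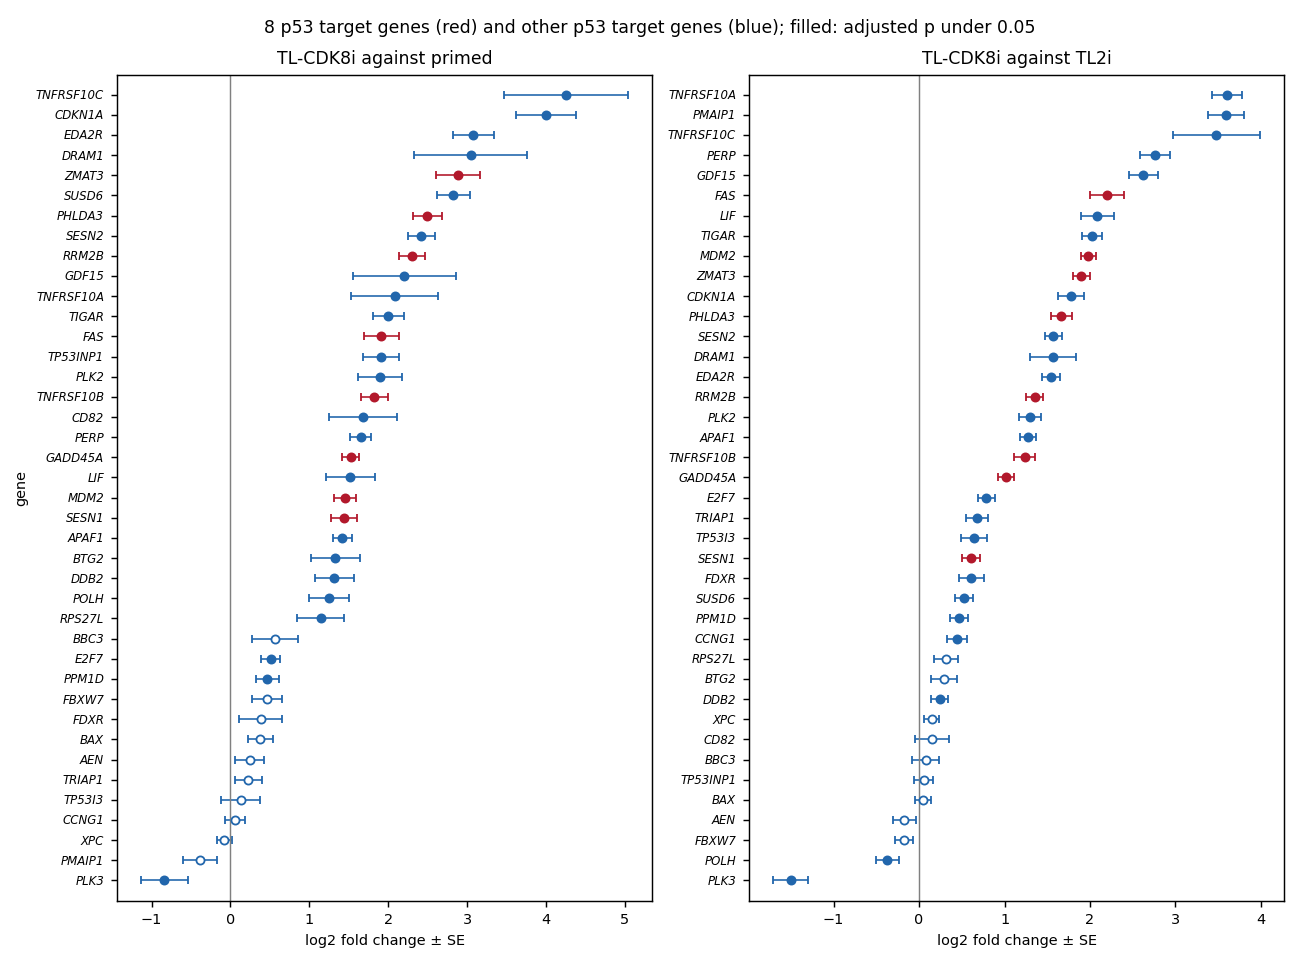
Log2 fold change ± SE (horizontal axis) of the 8 p53 target genes (red) and the other p53 target genes tested (blue) in TL-CDK8i against primed cells (left) and against TL2i (right), sorted by size. Filled points passed an adjusted p of 0.05, and all 8 red points are filled and right of 0 in both panels.

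Among other genes that act on p53, and its relatives, none was called higher in TL-CDK8/19i against primed cells. Of 22 such genes listed, with MDM4 and without MDM2, which rose, 20 were in the tables and 19 were tested. There 13 fell, beside 23.8% of all genes called lower and 22.3% called higher, with a median log2 fold change of -0.54 against 0.02 over all genes. They included DAXX, a histone chaperone that binds MDM2 (181.9 to 107.5 CPM, log2 fold change -0.81 ± 0.10 SE, adjusted p = 8.9e-06), SIRT1, the deacetylase of p53 (155 to 85.7 CPM, -0.91 ± 0.13 SE, adjusted p = 4.8e-05), and RPL11 and RPL5, ribosomal proteins that bind MDM2 (-0.74 ± 0.09 and -0.54 ± 0.08 SE, adjusted p = 1.0e-05 and 4.5e-05). The damage kinases ATM (0.07, adjusted p = 0.73) and ATR (-0.11, adjusted p = 0.56) were not called, and CHEK1 fell (-0.64 ± 0.11 SE, adjusted p = 0.00029). Elsewhere 13 of the 19 were lower and 1 was higher in NHSM-v (30.6% and 28% of all genes), 12 and 2 in 4i/L/b (29% and 26.6%), 10 and 3 in t2iLGöY (27.2% and 27.1%), 10 and 5 in LCDM (EPS) (28.9% and 28.2%), 9 and 3 in TL2i (25.2% and 25.6%) and 3 and 3 in E-NHSM (15.1% and 11.1%). HIPK2, a kinase that phosphorylates p53, rose in LCDM (EPS) by 4.74-fold, in t2iLGöY by 3.26-fold and in NHSM-v by 2.93-fold (adjusted p = 1.9e-10, 4.7e-09 and 4.9e-09). It rose less in 4i/L/b, by 2.07-fold, and in TL2i, by 1.71-fold (adjusted p = 9.1e-07 and 2.8e-05). In E-NHSM HIPK2 fell (log2 fold change -0.34, adjusted p = 0.042).

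Markers of other cell types and of proliferation also differed between groups, and not always in the order of the p53 targets. The summed level of 8 pluripotency markers was 5739 to 6550 CPM in primed, 6789 to 6866 CPM in E-NHSM and 1692 to 2331 CPM in TL-CDK8/19i libraries. It lay between 130.5 CPM, in an NHSM-v library, and 603 CPM, in a TL2i library, in the remaining protocols. Of 8 fibroblast markers, 6 rose and none fell in TL-CDK8/19i, where their sum was 8705 to 11240 CPM against 1138 to 2420 CPM in primed libraries, with LUM and DCN at a mean of 7.19 and 4.72 CPM in TL-CDK8/19i and at 0 in primed cells. The sum was larger in 4i/L/b, at 11600 to 15070 CPM, where MDM2 lay between 49.1 and 54.1 CPM, and similar in NHSM-v, at 7855 to 8382 CPM. The trophoblast sum of 5 markers was 137 to 230 CPM in TL-CDK8/19i and at most 33.0 CPM elsewhere, and most of it was the keratin KRT7, at 129 to 219.4 CPM in TL-CDK8/19i. HAND1 was also called higher than in primed cells, at a mean of 1.91 against 0.057 CPM, while GATA3 (5.61 against 1.33 CPM) was not called, and GATA3, HAND1 and CDX2 were all called lower than in TL2i, where their means were 11.7, 6.95 and 4.76 CPM (CDX2 at 0.22 CPM in TL-CDK8/19i). The neural sum of 9 markers, 2144 to 2401 CPM against 2243 to 2592 CPM in primed libraries, was mostly NES, which fell from a mean of 2431 to 1894 CPM. Of the 8 neural markers tested 5 rose and 1, NES, fell. From primed to TL-CDK8/19i means, NEFL rose from 4.84 to 187.6 CPM, TUBB3 from 10.3 to 107.3 CPM, DCX from 2.46 to 28 CPM, STMN2 from 11.8 to 28.4 CPM and POU3F2 from 0.31 to 12 CPM. Against TL2i 2 of the 9 rose, TUBB3 and NEFL, and 6 fell. The neural sum was highest in LCDM (EPS), at 5685 to 5846 CPM, followed by t2iLGöY, at 3693 to 4047 CPM. The endoderm sum of 5 markers was 23.9 to 39.4 CPM in TL-CDK8/19i against 11.2 to 21.3 CPM in primed libraries. Of the 5, only SOX17 was called higher in TL-CDK8/19i than in primed cells. The endoderm sum was highest in TL2i, at 45.5 to 76.7 CPM. Of 6 proliferation genes 1 rose and 3 fell in TL-CDK8/19i, with a sum of 2621 to 2956 CPM against 3474 to 3825 CPM in primed and 2608 to 3204 CPM in TL2i libraries. Their part in the levels of the p53 targets was not tested.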

How the data were processed

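The authors deposited whole-number read counts per gene symbol from directional mRNA libraries, 1 table per group. The submitters' processing notes name bcl2fastq, cutadapt, HISAT2 and HTSeq, and their versions, the genome build, the annotation and the strand setting are not given in the sources used here. Groups were taken from the labels. The 6 primed columns carry letters (J, K) that the labels do not explain, and the labels, which divide primed samples by number, give 2 of them one number in the title and another in the protocol entry, so they were used as 6 primed libraries without number. Counts were filtered per comparison with edgeR's filterByExpr, normalised by TMM and fitted with edgeR 4.0.16 (glmQLFit, glmQLFTest, limma 3.58.1, R 4.3.3), with 2 groups in a fit and Benjamini-Hochberg adjustment over all genes tested. CPM used TMM factors over all 27 libraries, and Pearson's r was taken on log2 CPM (prior count 2). The scripts were tested on simulated data. Alternatives were upper-quartile normalisation, DESeq2 1.42.0, other filters, a fit of all 8 groups, primed letters apart, a replicate block and each library left out. The members and lists were chosen with earlier results of these data known. Named genes outside the list of 8 were taken from the 4 called with the smallest p per list and comparison. Of the genes that act on p53, and between primed K and J, not all of these are given. Values of BAX, BBC3, PMAIP1, PLK3, CHEK1, ATM and ATR in TL-CDK8/19i against primed cells, of PLK3 and POLH against TL2i, and the genes listed as above all other libraries, were chosen after they were seen. So were the levels of SUSD6, PMAIP1, TP53INP1, EDA2R and CCNG1 given without a fold change, and HIPK2 in E-NHSM. The calls of DAXX, SIRT1, RPL11, RPL5 and CHEK1 outside TL-CDK8/19i were also chosen after they were seen. COP1 and CDKN2A were not found among the symbols, and 1 listed gene is not reported here. Promoter and protein sequences were not analysed here. How far depth limits precision was not tested, and the floor covers counting error only.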

Additional observations from a re-analysis of the deposited data

Results flagged for a closer look

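The 8 p53 target genes met the criterion of a tested difference between groups under the same contrast, because their change from primed cells differed between TL-CDK8/19i and TL2i, which share the primed libraries as reference. The differences in log2 fold change, from edgeR's quasi-likelihood test between these protocols, were 1.98 for MDM2, 1.02 for GADD45A, 1.90 for ZMAT3, 0.61 for SESN1, 1.35 for RRM2B, 2.20 for FAS, 1.24 for TNFRSF10B and 1.66 for PHLDA3, with adjusted p from 5.8e-10 to 0.00019. For MDM2 the signs against primed cells were opposite, lower in TL2i and higher in TL-CDK8/19i. In the 6 primed libraries no member had a single library apart from the rest by Dixon's criterion, and groups of 3 were not examined in this way.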

How the results depend on the processing

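All 8 genes were called higher in TL-CDK8/19i under each of 16 alternatives against primed cells and each of 12 against TL2i. With the replicate block, TL-CDK8/19i against TL2i still gave 8 of 8 genes, and 8420 instead of 8906 genes over all. Libraries with the same number did not deviate together (r = -0.13, -0.01 and -0.01). With 3 libraries per group, these values cannot decide whether the numbers pair the samples. No paired analysis was possible against primed cells because the primed columns carry letters that no label explains.

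Single-gene fold changes changed sign 63 times over all alternatives, in 16 combinations of gene and comparison, and none was called before or after. The largest before the change were those of ZMAT3 in E-NHSM (-0.51) and t2iLGöY (-0.36). The values were as follows. With upper-quartile normalisation, 0.058 (RRM2B, E-NHSM) and 0.018 (SESN1, 4i/L/b). With DESeq2, 0.044 (GADD45A, NHSM-v), 0.047 (SESN1, 4i/L/b) and 0.022 (MDM2, LCDM (EPS)). With no filter, 0.037, 0.020 and 0.013 for these 3. With at least 10 counts in every library, 0.031, 0.025 and 0.035 for them and 0.0012 for RRM2B in E-NHSM. With all 8 groups in a single fit, 0.012 (GADD45A, NHSM-v), 0.010 (SESN1, 4i/L/b) and -0.0042 (CDKN1A, t2iLGöY). Against J alone, 0.23 and 0.31 (ZMAT3 and RRM2B, E-NHSM), 0.00028 (GADD45A, NHSM-v), 0.11 and 0.37 (MDM2 and ZMAT3, t2iLGöY), 0.22 (MDM2, LCDM (EPS)) and 0.085 (ATR, TL-CDK8/19i). Against K alone, 0.019 and -0.035 (GADD45A and RRM2B, NHSM-v), -0.22 and -0.014 (RRM2B and CDKN1A, t2iLGöY) and -0.19 and -0.099 (ZMAT3 and RRM2B, LCDM (EPS)).

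Leaving out 1 library gave ranges of -0.10 to 0.087 (RRM2B, E-NHSM), -0.19 to 0.11 (GADD45A, NHSM-v), -0.14 to 0.029 (SESN1, NHSM-v), -0.16 to 0.13 (SESN1, 4i/L/b), -0.053 to 0.13 (RRM2B, t2iLGöY), -0.19 to 0.38 (CDKN1A, t2iLGöY), -0.11 to 0.11 (MDM2, LCDM (EPS)), -0.13 to 0.40 (CDKN1A, LCDM (EPS)) and -0.0024 to 0.17 (ATM, TL-CDK8/19i). The number of the 8 genes called then ran from 1 to 3 in E-NHSM, 3 to 6 in 4i/L/b, 4 to 7 in TL2i and 0 to 1 between primed K and J. Genes called over all in E-NHSM rose to 5255 with all 8 groups in a single fit, and between primed K and J, 469 became 746 with DESeq2, 823 with no filter and 184 to 595 with 1 library left out. With upper-quartile normalisation the primed calls split into 214 higher and 269 lower instead of 255 and 214. The cause of these changes was not tested. How far depth limits precision was not tested, and genes well above the floor of 3 counts can still rest on few reads. FAS in t2iLGöY had 19 to 46 counts per library.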
